A study of Mus musculus with 6 samples.

Results

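The antioxidant and glutathione enzymes described here are 36 genes, taken by symbol from the 54532 gene rows of a count table of 32D cells, a myeloblast-like mouse cell line dependent on interleukin-3. They were grouped as 3 genes of superoxide removal, 9 of peroxide removal, 12 of glutathione synthesis, use and export, 9 thioredoxin and glutaredoxin genes and 3 other genes. Every one of the 36 symbols had a row, and 34 passed the filter on low counts and were tested. RNA sequencing compared 3 libraries of cells carrying human U2AF1 with the S34F substitution (S34F) with 3 libraries of cells carrying the wild-type protein (WT). U2AF1 is a splicing factor that recognises the 3' end of introns, and S34F occurs in myeloid malignancies. Both groups had been transduced with an MSCV-IRES-GFP retrovirus holding the human construct and were kept in IMDM with serum and mouse interleukin-3, so WT is itself an overexpression control, and the cells still transcribe the mouse gene. The labels do not name separate cultures or clones, so the spread between libraries may be partly technical.

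Cells dispose of superoxide by dismutation to hydrogen peroxide, which catalase, glutathione peroxidases and peroxiredoxins then reduce. Peroxiredoxins are recycled by thioredoxin and its NADPH-dependent reductase, and glutathione peroxidases by glutathione and glutathione reductase. Many of these genes are induced by the transcription factor NRF2 through antioxidant response elements, and myeloid cells, which can make superoxide through NADPH oxidase, use them to limit damage to themselves.

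Gene counts totalled between 16509899 and 19129250 per library. Levels are given as CPM, counts scaled to the TMM-adjusted size of each library, where 1 count equals 0.0520 to 0.0608 CPM. WT replicates 2 and 3 were unusually alike (biological coefficient of variation 3.21%, where other same-group pairs had 16.5% to 21.5%), although their counts differed by more than sampling noise. WT replicate 1 stood apart from both. Mouse U2af1 did not differ (log2 fold change 0.17 ± 0.25, SE, n = 3 per group, edgeR adjusted p = 0.721), and its counts cannot check the labels, since the construct is human. Of 10 myeloid progenitor markers Csf2rb, Ptprc, Ctsg, Spi1, Il3ra, Prtn3 and Mpo were present, while Elane, Kit and Cd34 had between 3 and 23 counts over the 6 libraries. Summed macrophage markers were 263 to 361 CPM in S34F and 236 to 244 CPM in WT, mostly Adgre1, with C1qa and C1qb at 0. Adgre1 itself overlapped between the groups (1.13-fold, edgeR adjusted p = 0.441), and Mrc1 had 40 counts over the 6 libraries. Within this list Cd68 was at 32.0 to 32.4 CPM in S34F and 7.46 to 19.9 CPM in WT (2.77-fold, edgeR adjusted p = 0.0695), and Csf1r and Cd14 overlapped (2.72-fold and 4.22-fold, adjusted p = 0.217 and 0.193). Summed megakaryocyte markers were 779 to 887 CPM in S34F and 599.6 to 634 CPM in WT, mostly Itga2b. Pf4 was at 35.6 to 41.7 CPM in S34F and 8.60 to 24.3 CPM in WT (2.74-fold, edgeR adjusted p = 0.0699). Itga2b also lay apart and higher but did not pass (1.31-fold, edgeR adjusted p = 0.107). Vwf, Gp1ba and Gp9 overlapped, the last with a lower estimate (0.48-fold, edgeR adjusted p = 0.239). The sum of the progenitor markers was 1745 to 2047 CPM in S34F and 1387 to 1633 CPM in WT. Spi1 was higher by the test (edgeR adjusted p = 0.0491). Ctsg and Il3ra lay apart and higher but did not pass (1.49-fold and 1.37-fold, adjusted p = 0.106 and 0.0585). Csf2rb, Ptprc, Mpo and Prtn3 overlapped, the last with a lower estimate (0.76-fold, adjusted p = 0.325). The macrophage, megakaryocyte and progenitor sums did not overlap between the groups, and their part in the members' differences was not tested. The erythroid, mast cell, neutrophil, lymphocyte and fibroblast sums overlapped between the groups and did not exceed 20.7 CPM in any library, with the erythroid markers Hbb-bt and Slc4a1 at 0.

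None of the 34 tested genes passed the test between S34F and WT. By edgeR 0 genes rose and 0 fell (adjusted p under 0.05), where 2.18% of all 13444 genes tested were called. DESeq2 called Txnrd2 and Blvrb as higher, 2 of 34, where it called 10.0% of all genes, and limma-voom called 0, where it called 2.01%. At an unadjusted p under 0.05, edgeR had 5 genes higher (Txnrd2, Blvrb, Gsto1, Abcc4, Srxn1) and 2 lower (Gpx1, Prdx1), or 20.6% of the 34, where the share of all genes was 22.0% (11.9% higher and 10.1% lower). The 3 S34F libraries lay wholly on 1 side of the 3 WT libraries in 7 of the 34 genes, 4 above and 3 below, and in 27.1% of all genes (14.0% above and 13.1% below). The first share was close to that of all genes and the second was lower. Whether either differs from that of all genes was not tested.

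**Figure D1:**
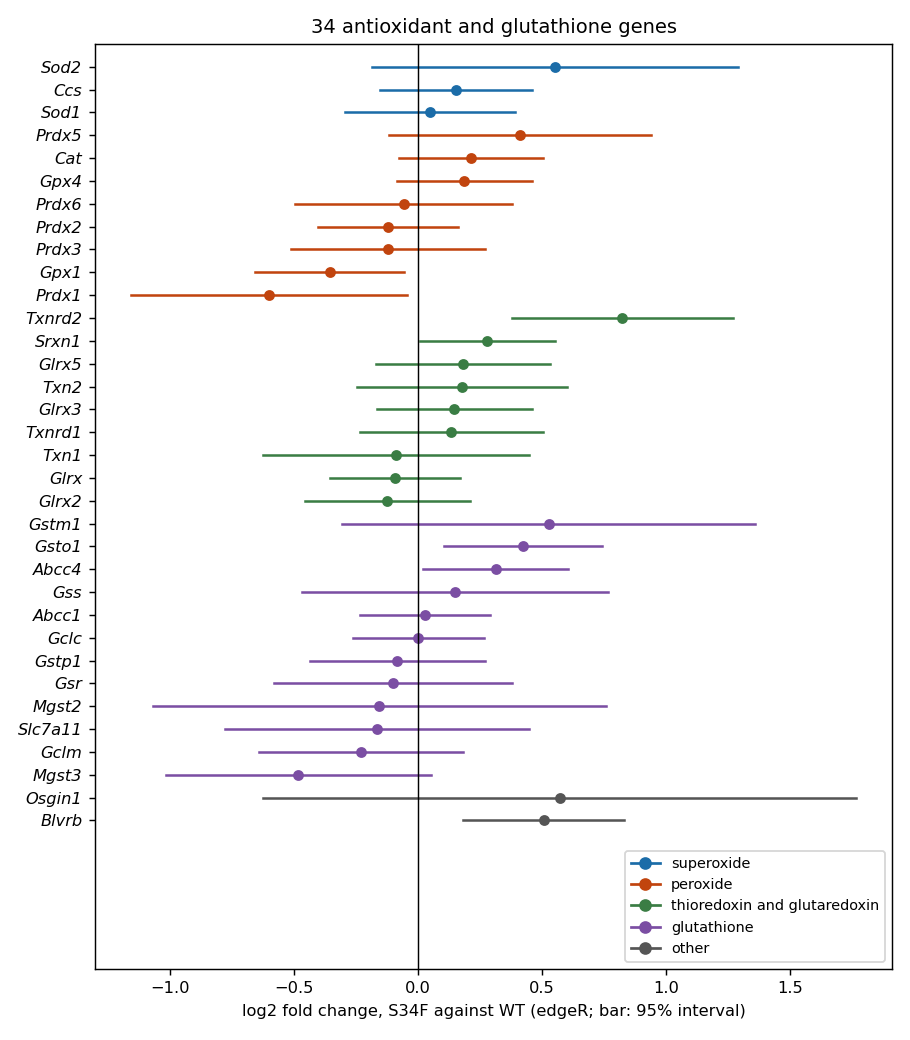
Log2 fold change of S34F against WT for the 34 tested genes (x axis), by gene and class (y axis and colour); points are edgeR estimates and bars unadjusted 95% intervals. Estimates run from -0.60 for Prdx1 to 0.82 for Txnrd2, and most bars cross 0.

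Estimates were positive for 20 genes and negative for 14, with a median log2 fold change of 0.09, against 0.00052 over all genes. Gclc and Abcc1, at 0.0011 and 0.027, changed sign when only library totals or upper-quartile factors were used for scaling. The median was 0.017, with 17 estimates of either sign, once the trend of each library with transcript GC content had been removed, and 0.033 with WT replicates 2 and 3 summed. It was 0.040 without a count filter, which adds Nqo1 and Prdx4. With 1 library left out, in the order S34F 1 to 3 and WT 1 to 3, it was -0.024, 0.047, 0.12, 0.19, 0.044 and -0.0027. Both its size and its sign therefore changed with the library left out. The unadjusted 95% interval excluded a change of 1.5-fold in either direction for 17 of the 34 genes and a change of 2-fold for 27. Among all 13444 genes tested these counts were 5227 and 9416. The intervals treat WT replicates 2 and 3 as separate libraries.

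Among the 3 superoxide genes all estimates were positive and all groups overlapped. Sod2, the manganese dismutase of the mitochondrial matrix (chromosome 17, 13006846 to 13040063, mm10), was at 154, 239 and 123 CPM in the S34F libraries (replicates 1 to 3 in this order throughout) and at 179, 85.5 and 87.3 CPM in the WT libraries. WT replicate 1 lay above S34F replicates 1 and 3, so the groups overlapped. The log2 fold change was 0.55 ± 0.32 (SE, edgeR adjusted p = 0.354), 0.996 without WT replicate 1 (adjusted p = 0.0516) and 0.24 without S34F replicate 2 (adjusted p = 0.683). Sod1, the copper and zinc dismutase of the cytosol and the highest of the class per exon length, was at 162, 143 and 137 CPM in S34F and at 174, 122 and 131 CPM in WT. Its log2 fold change was 0.048, with an interval from -0.29 to 0.39. It turned to -0.031 with WT replicates 2 and 3 summed into 1 library, and to -0.033, -0.059 and -0.0069 without S34F replicate 1, WT replicate 2 and WT replicate 3. For Ccs, the chaperone that loads copper into Sod1, it was 0.15 (adjusted p = 0.547), and -0.0029 with the GC trend removed.

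Of the 9 peroxide genes 8 could be tested, with 3 positive and 5 negative estimates. Gpx1, the cytosolic selenoprotein glutathione peroxidase (chromosome 9, 108338903 to 108340343), was the highest of all 36 genes per exon length, at 618 CPM per kb. Its level was 826, 861 and 657 CPM in the S34F libraries and 951, 1029.7 and 1017 CPM in the WT libraries. All 3 S34F libraries lay below all 3 WT libraries. The mean was 1.28-fold lower in S34F, with a log2 fold change of -0.36 ± 0.13 that did not pass (SE, n = 3 per group, edgeR adjusted p = 0.167). The estimate was -0.52 (adjusted p = 0.0952) with the GC trend removed.

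Prdx1, the abundant cytosolic peroxiredoxin (chromosome 4, 116685544 to 116700822), was at 266, 179 and 159.7 CPM in S34F and at 412, 253 and 252 CPM in WT. S34F replicate 1 lay above WT replicates 2 and 3, so the groups overlapped. Its log2 fold change was -0.60 ± 0.24 (edgeR adjusted p = 0.197) and -0.32 without WT replicate 1, the library with its highest level. With the replicate number as a block the adjusted p was 0.00665, although the numbers are not known to pair the libraries. In this gene replicate 1 was the highest library of either group.

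The other peroxide genes showed no separation of the groups. Prdx5, a peroxiredoxin of mitochondria, peroxisomes and cytosol, was at 145, 222 and 131 CPM in S34F and at 161, 109.6 and 103 CPM in WT, with S34F replicate 2 the highest. Trmt112, on the opposite strand, covers 19.1% of the exon bases of Prdx5 at 75.2 CPM, and had a log2 fold change of -0.08 ± 0.10 (SE, edgeR adjusted p = 0.680). Whether the authors counted by strand is not given in the sources used here. Cat, which encodes catalase, was at 65.7, 61.3 and 52.6 CPM against 46.3, 55.1 and 53.4 CPM. Gpx4, the peroxidase that reduces lipid hydroperoxides and restrains ferroptosis, was at 155, 161 and 125 CPM against 131, 129 and 128 CPM. Their log2 fold changes were 0.41, 0.21 and 0.19, with adjusted p-values of 0.335, 0.358 and 0.394. Removal of the GC trend took Gpx4 to -0.0043, and 60.2% of its transcript is G or C.

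Gpx4 has a pseudogene with counts of its own, Gpx4-ps2, at 15.2 to 26.4 CPM, and some reads may fit both. The sum of gene and pseudogene was 181, 184 and 145 CPM in S34F and 149, 145 and 143 CPM in WT, which leaves the overlap of the groups as it was. Prdx2, Prdx3 and Prdx6, the last a peroxidase that also acts on phospholipids, had log2 fold changes between -0.12 and -0.057. Junb overlaps 5.67% of the exon bases of Prdx2 on the opposite strand, at 133 CPM on average against 47.4 CPM for Prdx2. Prdx4, the peroxiredoxin of the endoplasmic reticulum, had 29 counts in all 6 libraries together and was removed by the count filter. Without that filter its log2 fold change was -0.32 (edgeR adjusted p = 0.872).

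**Figure D2:**
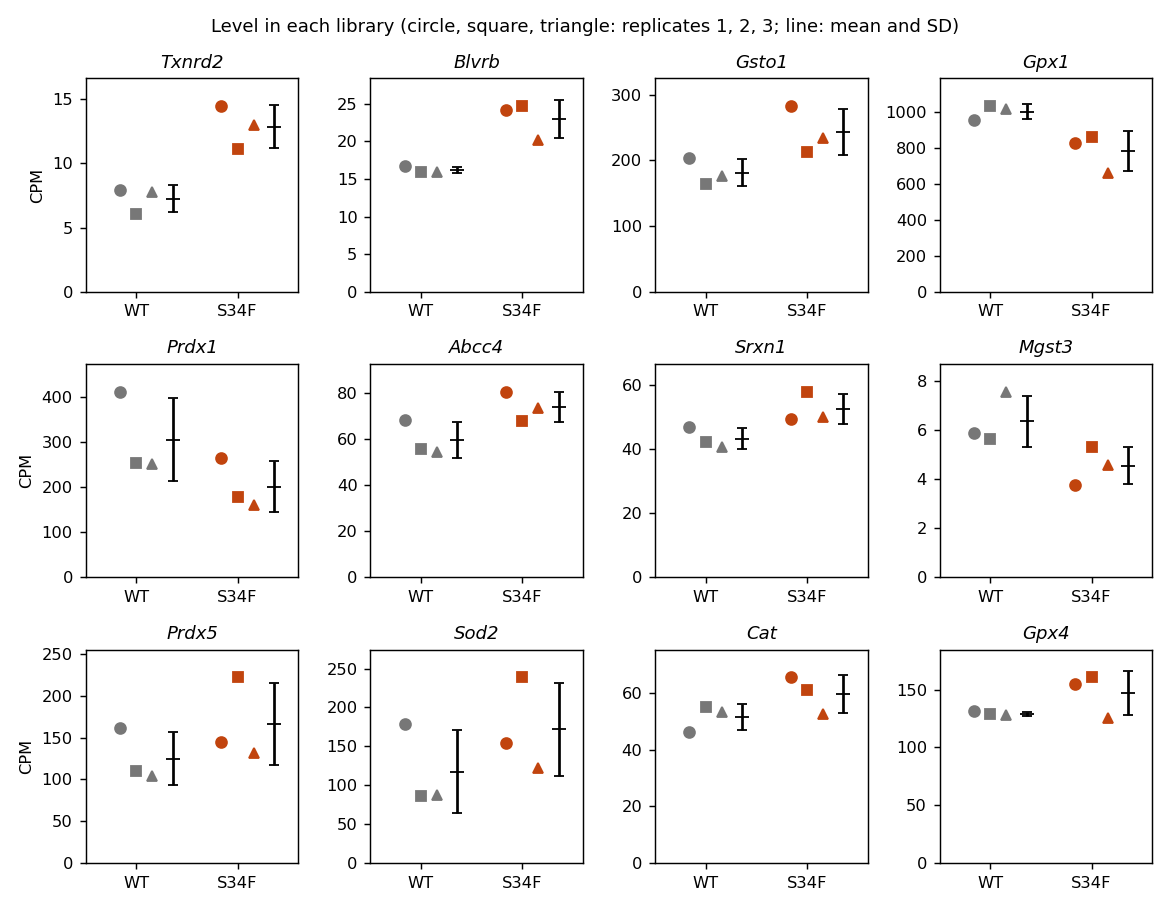
CPM (y axis, from 0) in each WT (grey) and S34F (orange) library of the 12 genes with the smallest unadjusted p; marker shape gives the replicate, and lines the mean and SD of 3. Txnrd2, Blvrb, Gsto1 and Srxn1 have all S34F libraries above all WT libraries, Gpx1 and Mgst3 all below, and the other 6 overlap.

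In the thioredoxin and glutaredoxin class 6 estimates were positive and 3 negative. Txnrd2, the mitochondrial thioredoxin reductase (chromosome 16, 18426384 to 18479073), had the smallest p of all members. It was at 14.4, 11.1 and 13 CPM in the S34F libraries and at 7.91, 6.07 and 7.78 CPM in the WT libraries. Each S34F library lay above each WT library. The mean was 12.8 ± 1.66 against 7.25 ± 1.03 CPM (SD, n = 3 per group), a 1.77-fold difference with a log2 fold change of 0.82 ± 0.20 (SE, edgeR adjusted p = 0.0695).

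The call of Txnrd2 depended on the test. It passed with DESeq2 (adjusted p = 0.00471) and without a count filter (adjusted p = 0.0307). It also passed with the replicate number as a block (adjusted p = 0.0214), where 10.5% of all genes did, and without WT replicate 1 (adjusted p = 0.0436), where 8.51% did. With WT replicates 2 and 3 summed (0.145% of all genes called) and with the GC trend removed (1.18%) its adjusted p was 0.242 and 0.116, while its log2 fold change stayed between 0.69 and 0.92 under the 16 alternatives tried.

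Srxn1, the sulfiredoxin that repairs overoxidised peroxiredoxins, was at 49.4, 57.9 and 50.2 CPM in S34F and at 47.0, 42.1 and 40.7 CPM in WT. The groups did not overlap, and the log2 fold change was 0.28 ± 0.12 (SE, edgeR adjusted p = 0.219). Txn1, the cytosolic thioredoxin and the highest of this class per exon length at 178 CPM per kb, was at 213, 150.4 and 179 CPM in S34F and at 272, 155 and 149.8 CPM in WT. It was highest in replicate 1 of either group, and its log2 fold change of -0.089 became 0.25 without WT replicate 1 and 0.031 without S34F replicate 2. The cytosolic reductase gene Txnrd1 had a log2 fold change of 0.13 and the mitochondrial thioredoxin gene Txn2 one of 0.18 (adjusted p = 0.669 and 0.616).

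The 4 glutaredoxin genes differed little from WT, and none passed. Glrx3 and Glrx5, which take part in iron-sulfur cluster handling, had log2 fold changes of 0.15 and 0.18, and the mitochondrial Glrx2 one of -0.12. Glrx was lower in each S34F library than in each WT library, but only by a log2 fold change of -0.094 (adjusted p = 0.670). Its levels were 27.8, 29.7 and 28.1 CPM against 31.3, 30.2 and 29.9 CPM.

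Among the 12 glutathione genes 6 estimates were positive and 6 negative. Gsto1, the omega-class transferase that reduces dehydroascorbate and removes glutathione from proteins (chromosome 19, 47854970 to 47864790), was at 282, 213 and 235 CPM in S34F and at 204, 164 and 177 CPM in WT. The groups did not overlap. The mean was 1.34-fold higher in S34F with a log2 fold change of 0.42 ± 0.14 that did not pass (SE, n = 3 per group, edgeR adjusted p = 0.136). With the replicate number as a block the adjusted p was 0.0239.

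Glutathione synthesis showed no common direction. Gclc and Gclm, the catalytic and modifier subunits of glutamate-cysteine ligase, had log2 fold changes of 0.0011 and -0.23. The interval of Gclc ran from -0.26 to 0.27, so a change of 1.5-fold lay outside it. Gss, which completes glutathione, and Gsr, which reduces its oxidised form, had log2 fold changes of 0.15 and -0.10. Slc7a11, the cystine importer that supplies cysteine, was at 161, 217 and 87.0 CPM in S34F and at 176, 172 and 172 CPM in WT. The S34F libraries lay on both sides of the WT libraries, which were nearly equal. Its log2 fold change was -0.16 and turned to 0.12 without S34F replicate 3.

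The transferases and exporters were mixed as well. Mgst3, a microsomal glutathione transferase, was at 3.78, 5.30 and 4.60 CPM in S34F and at 5.90, 5.66 and 7.57 CPM in WT. All S34F libraries lay below WT, with a log2 fold change of -0.48 ± 0.24 (SE, edgeR adjusted p = 0.272). Abcc4, an efflux pump of organic anions (chromosome 14, 118482692 to 118706219), was at 80.4, 67.5 and 73.2 CPM against 68.3, 55.6 and 54.3 CPM, with WT replicate 1 above S34F replicate 2. Its log2 fold change was 0.31 ± 0.13 (adjusted p = 0.203), and that of Abcc1, which exports glutathione conjugates, 0.027. Gstp1 had a log2 fold change of -0.083 and Mgst2 one of -0.16 (adjusted p = 0.794 and 0.854). Gstp1 has a pseudogene, Gstp-ps, with 5.06 CPM on average that can share its reads.

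Of the other 3 genes, Blvrb, the NADPH-dependent flavin and biliverdin reductase (chromosome 7, 27447978 to 27466144), was at 24.1, 24.6 and 20.1 CPM in S34F and at 16.7, 15.9 and 15.9 CPM in WT. The groups were apart, and the WT libraries were nearly equal. The mean was 23.0 ± 2.47 CPM in S34F and 16.2 ± 0.427 CPM in WT (SD, n = 3 per group). The log2 fold change was 0.51 ± 0.14 by edgeR and did not pass (SE, adjusted p = 0.0987), while it passed by DESeq2 (adjusted p = 0.0296). With the GC trend removed it was 0.39 (adjusted p = 0.181). Osgin1, an NRF2 target that restrains growth, was at 3.89, 8.22 and 1.43 CPM in S34F and at 3.71, 2.53 and 2.92 CPM in WT, with S34F libraries on both sides of WT. Its log2 fold change was 0.57 and turned to -0.19 without S34F replicate 2. Nqo1, the quinone reductase often used as a readout of NRF2, had 51 counts over the 6 libraries, between 6 and 12 in each, and was removed by the count filter. Without that filter its log2 fold change was -0.55 (edgeR adjusted p = 0.655).

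**Figure D3:**
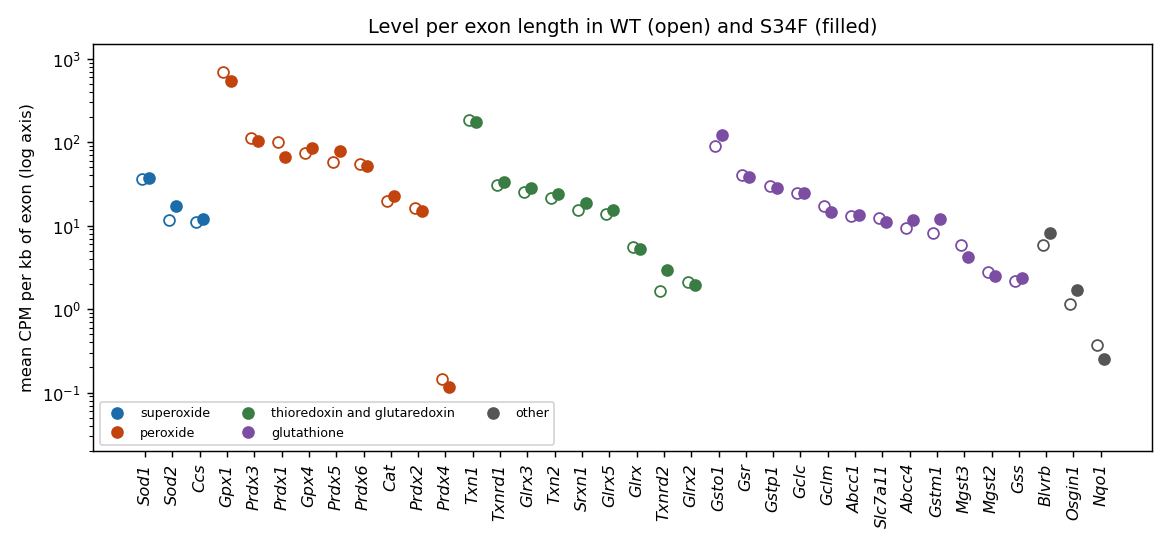
Mean CPM per kb of exon (y axis, log scale) in WT (open) and S34F (filled) for all 36 genes (x axis), ordered within class (colour). Gpx1 is highest at 618 on average, and Prdx4 and Nqo1 are lowest at 0.13 and 0.31.

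NRF2 binds antioxidant response elements, and their core letters TGACNNNGC were searched on both strands in the RefSeq promoter windows of the genes (from 250 bases before to 50 after each start, GRCm38.p6, the assembly of mm10). Windows were found for 31 of the 36 genes. The letters occurred in 6 of these, Abcc4, Gclm, Prdx1, Sod1, Srxn1 and Txnrd1, or 19.4%, against 14.0% of all 27025 genes with a window. The matches of Prdx1, Gclm and Txnrd1 are shown because these genes are classical NRF2 targets and had estimates of different sign here. Each is written 5' to 3' on the strand of the gene, with the matched letters in capitals, here in the reverse orientation.
Prdx1: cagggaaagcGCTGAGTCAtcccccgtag
Gclm: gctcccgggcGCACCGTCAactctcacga
Txnrd1: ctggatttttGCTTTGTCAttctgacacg
The printed bases lie at chr4:116685456-116685484, chr3:122245413-122245441 and chr10:82859104-82859132, all on the plus strand. The match of Prdx1 lies 133 to 125 bases before the start of its window's transcript, that of Gclm 134 to 126 and that of Txnrd1 92 to 84. The Txnrd1 window, 82858956 to 82859255, belongs to a start inside the gene, which begins at 82833951. The log2 fold changes of these 3 genes were -0.60, -0.23 and 0.13, and those of Abcc4, Srxn1 and Sod1 were 0.31, 0.28 and 0.048. The letters are a description of these windows only.

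**Figure D4:**
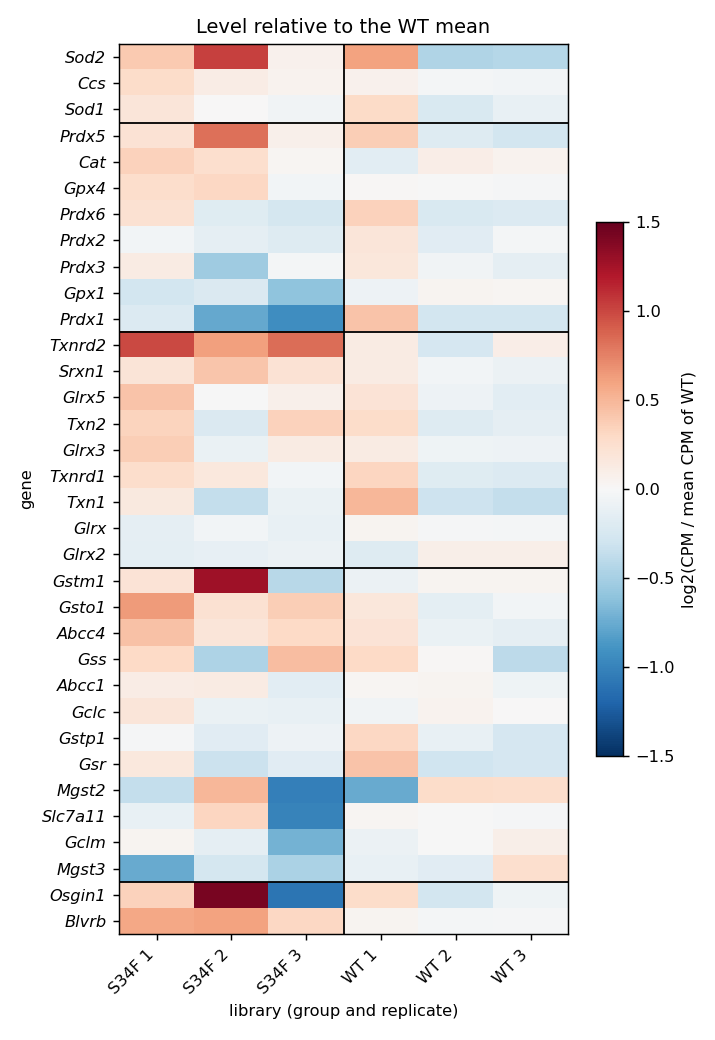
Log2 of CPM over the WT mean (colour) for the 34 tested genes (y axis, lines between classes) in each library (x axis). Txnrd2, Gsto1 and Blvrb are red in all 3 S34F columns, while Gstm1 and Osgin1 are dark red in S34F replicate 2 alone and many genes are redder in WT replicate 1 than in the other WT columns.

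Several members varied widely among the S34F libraries. Within S34F the highest library exceeded the lowest 5.73-fold for Osgin1, 3.21-fold for Gstm1, a mu-class transferase, 2.88-fold for Mgst2 and 2.49-fold for Slc7a11. In these 4 genes S34F replicate 2 was the highest and S34F replicate 3 the lowest. The same ratio within WT was 1.46, 1.10, 2.05 and 1.03. Gstm1 was at 14.0, 29.3 and 9.14 CPM in S34F and at 11.4, 12.5 and 12.5 CPM in WT, and without S34F replicate 2 its log2 fold change went from 0.53 to -0.068.

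The members also leaned to single libraries. WT replicate 1 was the highest WT library for 25 of the 34 genes (73.5%), against 42.0% of all genes tested. S34F replicate 3 was the lowest S34F library for 19 (55.9%), against 30.2% of all genes. Summed over the 36 genes, levels were 4449, 4143 and 3554 CPM in the S34F libraries and 4706, 3914 and 3890.5 CPM in the WT libraries. The sums of the groups overlapped, with the highest in WT and the lowest in S34F. Genes of 1 pathway are not independent, so these counts describe the libraries.

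Other genes of the same pathways, from 5 lists of 101 genes, included genes that passed the test. Of 76 tested, 7 rose and 0 fell by edgeR, where 1.58% of all genes rose and 0.595% fell. At an unadjusted p under 0.05, 17 were higher and 3 lower, or 26.3% of the 76 against 22.0% of all genes (11.9% higher and 10.1% lower). DESeq2 called 12 higher and 1 lower of 74, where it called 10.0% of all genes, and limma-voom 6 and 0 of 76, where it called 2.01%. Whether the enzymes and these genes differ in their share of calls was not tested.

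The NRF2 axis held 3 of the 7 among its 12 genes, where 1.58% of all genes rose. Sqstm1, the autophagy receptor p62 that sequesters KEAP1, was at 1349, 1636 and 1454 CPM in S34F and at 489, 546 and 592 CPM in WT, and rose 2.73-fold (edgeR adjusted p = 0.00344). Nfe2l1, the NRF2 relative that drives proteasome genes, was at 478, 528 and 458 CPM in S34F and at 241, 262 and 271 CPM in WT, and rose 1.89-fold (adjusted p = 0.0128). Mafk, a small MAF partner of NRF2, was at 138, 131 and 115 CPM against 88.5, 77.7 and 74.3 CPM and rose 1.6-fold (adjusted p = 0.0316, and 0.0643 with the GC trend removed). All 3 S34F libraries lay above WT in each of these. For Nfe2l2, which encodes NRF2, the log2 fold change was 0.46 (adjusted p = 0.0941), for its target Hmox1 0.94 (adjusted p = 0.0710) and for its inhibitor Keap1 -0.039. Nfe2l2 and Hmox1 did pass by DESeq2, which called 5 of the 12, as well as without a count filter and with the replicate number as a block. Of all genes, 10.0% passed by DESeq2, 763 of 24480 without a count filter and 10.5% with the block.

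Cyba and Ncf4, subunits of NADPH oxidase, rose 2.42-fold and 1.74-fold among 8 tested superoxide and peroxide genes (edgeR adjusted p = 0.0170 and 0.0276). Among 15 genes related to thioredoxin Msrb1 rose 2.01-fold and Msra 1.56-fold, both encoding methionine sulfoxide reductases (adjusted p = 0.0286 and 0.0492). Msra did not pass by limma-voom (adjusted p = 0.0544) or with scaling by upper-quartile factors (adjusted p = 0.0576) or library totals (adjusted p = 0.0646). Of 22 other glutathione genes and 19 genes of NADPH supply, edgeR called 0, with 4 (18.2%) and 3 (15.8%) at an unadjusted p under 0.05, where 22.0% of all genes were. DESeq2 called 1 of 21 and 1 of 18, where it called 10.0% of all genes, and limma-voom 0. Their members with the smallest p were Abcc3, an efflux pump, and Pgls, of the pentose phosphate pathway, with log2 fold changes of 0.50 each (adjusted p = 0.0933 and 0.0722). With WT replicates 2 and 3 summed, and likewise without S34F replicate 1, WT replicate 2 or WT replicate 3, Sqstm1 was the only 1 of the 76 that passed. Without S34F replicate 3 there were 3, Sqstm1, Nfe2l1 and Cybb, and without S34F replicate 2 there were 5, Mafk and Msra no longer among them. Without WT replicate 1 there were 14.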

How the data were processed

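The deposited values are unnormalised counts of reads for each Ensembl gene, with a column for each library that its name ties to a sample. The submitters' processing notes name HISAT2, featureCounts and mm10, and the kit was directional per the labels' protocols. Tool versions, the strand setting and the annotation release are not stated in these sources. The counts were tested across all genes in edgeR 4.0.16 (R 4.3.3) with TMM scaling, low counts removed by filterByExpr, and robust quasi-likelihood tests, two-sided, Benjamini-Hochberg adjusted over 13444 genes at 0.05. The design held the group alone, with 4 residual degrees of freedom. CPM are TMM-scaled, and fold values were taken from the fitted log2 fold changes. Exon lengths, coordinates and GC content came from GENCODE M21 on mm10, and CPM per kb use the union of exons. Intervals cover 1 gene at a time. The procedure was tested on simulated counts.

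The members and lists were chosen with earlier results of these data known. Values in every library are given for the 12 members with the smallest p and the highest of each class per exon length. For other lists up to 4 genes that passed are given, or the 1 with the smallest p. Genes named beside these (Gstm1, Slc7a11, Osgin1, Glrx, Nfe2l2, Hmox1, Keap1, the markers given with a fold value and members given by a log2 fold change alone) were chosen after their values were seen. Alternatives used RLE factors, upper-quartile factors or library totals for scaling, 2 other count filters, DESeq2 1.42.0, limma-voom (limma 3.58.1), a replicate block, each library left out, WT replicates 2 and 3 summed, and each library's loess trend with GC content (span 0.5) removed. Figures were drawn with matplotlib 3.10.9. Some overlapping or marker genes are not reported here.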

Additional observations from a re-analysis of the deposited data

How the results depend on the processing

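No member passed under RLE or upper-quartile factors, library totals, a minimum of 1 CPM in 3 libraries, limma-voom, WT replicates 2 and 3 summed, or GC trend removed. Members called numbered 1 without a count filter, 2 by DESeq2 and 0 to 1 with each library left out. With the replicate number as a block, 3 members passed (Txnrd2, Gsto1 and Prdx1), 14 other redox genes and 1418 of all genes. The numbers are not said to pair the libraries: deviations of libraries with the same number correlated at 0.332, 0.159 and 0.0719, and S34F replicate 3 correlated best with WT replicate 2 (0.0801). Other redox genes called numbered 13 by DESeq2, 1 with WT replicates 2 and 3 summed and 1 to 14 with each library left out. Over all genes 293 were called, 763 without a count filter, 1216 by DESeq2, 20 with WT replicates 2 and 3 summed, 159 with the GC trend removed and 19 to 1177 with each library left out. The cause of these shifts was not tested.

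Of the 34 tested members 19 had the same sign under all 16 alternatives. Among the members whose values in every library are given, sign changes were Gpx4 with the GC trend removed (-0.0043), Sod1 with WT replicates 2 and 3 summed (-0.031) and with a library left out (-0.059 to 0.22), Txn1 with a library left out (-0.24 to 0.25), Slc7a11 without S34F replicate 3 (0.12), and Gstm1 (-0.068) and Osgin1 (-0.19) without S34F replicate 2. Across genes, fold changes followed GC content (Spearman's rho 0.316, genes not being independent replicates). Counts of 3, the limit a count of 0 allows, equal 0.156 to 0.182 CPM, for counting error only. Prdx4 and Nqo1 were tested only under alternatives that keep them, Nqo1 in 5 and Prdx4 in 1, and passed in 0.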
